A study of Mus musculus with 4 samples.

Results

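The genes described here encode plasma membrane and organelle carriers for amino acids, sugars and monocarboxylates such as lactate. They were chosen by symbol, as members of the solute carrier families Slc1, Slc2, Slc3, Slc5, Slc6, Slc7, Slc16, Slc36, Slc38 and Slc43. Slc7a11 was left out, and earlier results of these data were known when the choice was made. Of 97 such genes in the RefSeq mouse annotation, 75 were listed in the authors' table of 16709 gene symbols, and 22 were not analysed here. RNA sequencing was carried out on 3T3-L1 cells, a line of mouse fibroblasts studied here as preadipocytes, grown in DMEM with serum. The cells received 25 µM Nutlin-3a, which keeps the ubiquitin ligase MDM2 off p53, or an equivalent amount of the vehicle DMSO, both for 24 h. Each group had 2 biological replicates, and the comparison asks which transcripts differ once p53 is released from MDM2.

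The table gave each transcript 1 value per group, with no value for single libraries, in FPKM (fragments per kilobase of transcript, corrected by the authors for sequencing depth). No value below therefore carries a replicate error, no test was possible, and the depth behind the values is unknown. "Higher" and "lower" describe the ratio of the authors' group values for Nutlin-3a over DMSO. In bulk RNA, a change in RNA per cell and a change in the number of cells expressing a gene cannot be told apart. Of 6 preadipocyte and mesenchymal markers, 5 were compared, with a median log2 ratio of -0.87, against 0.07 over all genes compared. Pdgfra (9.14 FPKM in Nutlin-3a cells and 29.99 FPKM in DMSO cells) and Col1a1 (63.9 FPKM in Nutlin-3a cells and 193 FPKM in DMSO cells) were at least 2-fold lower, Thy1 and Pdgfrb lay lower within 2-fold, and Dlk1 had 623 FPKM in Nutlin-3a cells and 513 FPKM in DMSO cells. Of all genes compared, 6.14% were at least 2-fold lower, and 5 markers are too few to be set apart from them. The 4 mature adipocyte markers stayed at or below 0.840 FPKM in Nutlin-3a cells and 0.0609 FPKM in DMSO cells. Of 4 macrophage markers, 3 were listed, with a summed level of 3.89 FPKM in Nutlin-3a cells and 5.03 FPKM in DMSO cells. Most of that sum was Cd14, with 3.03 FPKM in Nutlin-3a cells and 4.48 FPKM in DMSO cells. The 2 endothelial and 3 epithelial markers listed summed to 1.67 and 0.472 FPKM in Nutlin-3a cells and to 0.174 and 0.139 FPKM in DMSO cells. The 2 endothelial ones went opposite ways. Pecam1 had 1.57 FPKM in Nutlin-3a cells and 0.0260 FPKM in DMSO cells, and Tek had 0.102 FPKM in Nutlin-3a cells and 0.148 FPKM in DMSO cells. The part of such cells in the results was not tested.

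Cells take up glucose by facilitated diffusion through the GLUT proteins, export or import lactate with protons through the monocarboxylate transporters, and take up amino acids through several overlapping systems. Exchangers of the Slc7 family work as light chains that need a heavy chain of the Slc3 family to reach the plasma membrane, while sodium-coupled carriers of the Slc1 and Slc38 families load the cell with glutamine and other small neutral amino acids. In other cell systems p53 has been reported to lower transcription of the glucose transporters Slc2a1 and Slc2a4 and of the lactate transporter Slc16a1, and to raise that of the aspartate and glutamate carrier Slc1a3 and the arginine carrier Slc7a3. These reports are not a full list, and they are background to the values below and not results of these data.

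Most transporter genes that could be compared lay within 2-fold between Nutlin-3a and DMSO cells. A gene was compared when its mean FPKM over both groups was at least 1 and both values were above 0, which held for 26 of the 75 members. These 26 carried 97.8% of the summed member FPKM in Nutlin-3a cells and 97.8% in DMSO. On the scale of log2(FPKM + 1), on which a 2-fold difference was taken as the limit, 2 of the 26 were higher in Nutlin-3a, 1 was lower and 23 lay within the limit. Over all 10331 genes compared, 6.62% were at least 2-fold higher and 6.14% at least 2-fold lower, so the members' shares of 7.69% higher and 3.85% lower are near that background. With a limit of 1.5-fold, 5 of the 26 were higher and 2 lower, against 17.8% and 15.2% of all genes compared. The median log2 ratio of the 26 members was -0.03, against 0.07 over all genes compared, with 13 members above 0 and 13 below. Of the 10331 genes compared, 5660 lay above 0 and 4671 below. Ratios in this table also moved with base composition: with all genes split into 8 classes by the GC content of their transcripts, genes poorest in GC had a median log2 ratio of 0.24 and genes richest in GC one of -0.17. Values corrected for this are given where a call depends on it.

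**Figure D1:**
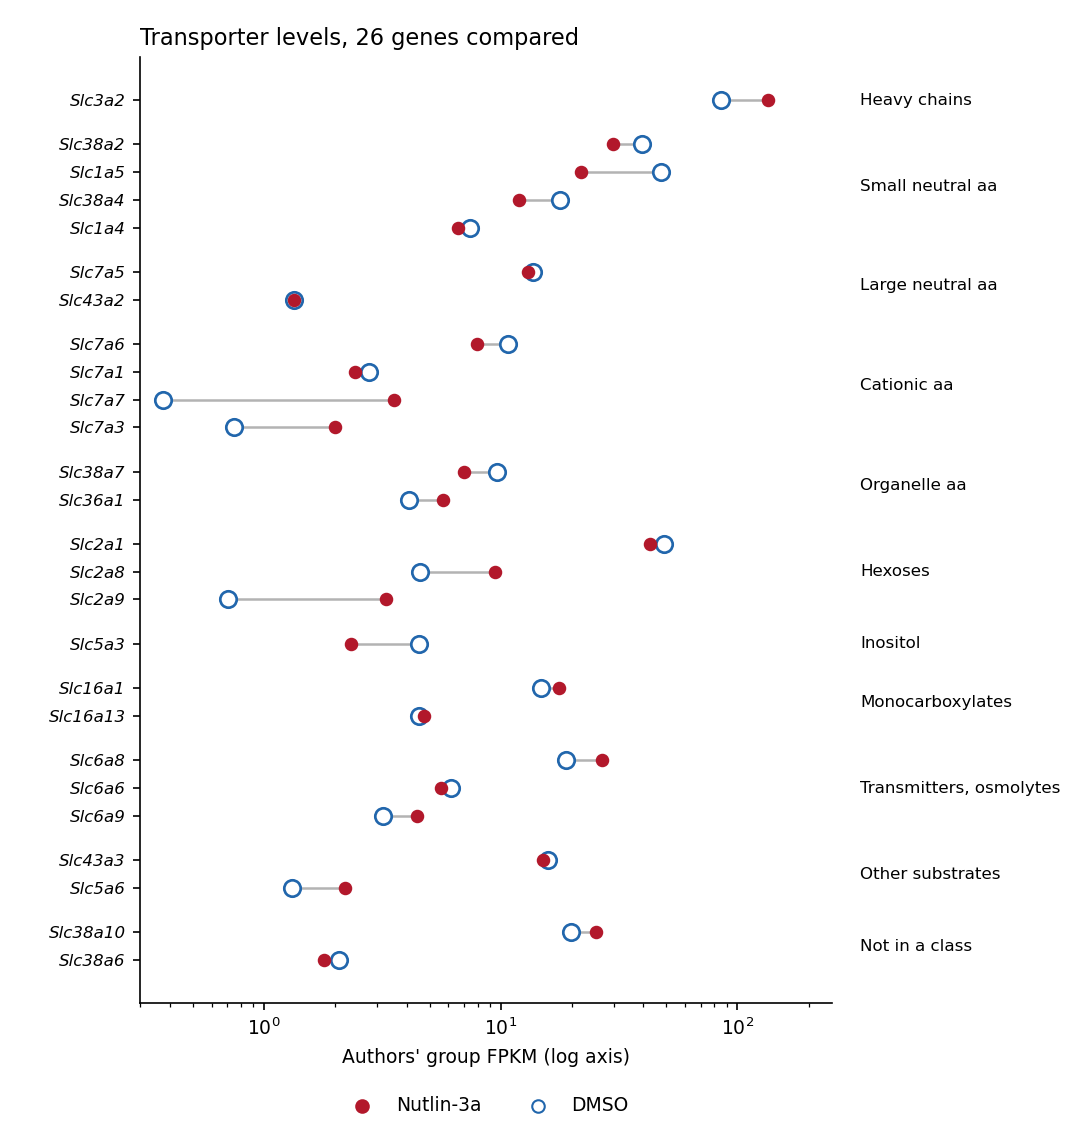
Authors' group FPKM of the 26 transporter genes compared, on a log axis, with filled points for Nutlin-3a and open points for DMSO, 1 value per group, joined by a line and grouped by substrate class. Slc3a2 is the most abundant at 134.5 FPKM in Nutlin-3a cells and 85.4 FPKM in DMSO cells, and the longest lines belong to Slc7a7 and Slc2a9.

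The heavy chain Slc3a2 and the sugar carrier Slc2a1 were the most abundant members in both groups. Slc3a2 ranked 698 of all symbols by FPKM in Nutlin-3a cells and 1037 in DMSO, and Slc2a1 ranked 1807 in Nutlin-3a and 1643 in DMSO. Below them the order differed between groups: Slc38a2, Slc6a8 and Slc38a10 came next in Nutlin-3a, while Slc1a5, Slc38a2 and Slc38a10 came next in DMSO. Slc1a5 thus stood at place 6 in Nutlin-3a and at place 3 in DMSO. Whether neighbours in this order differ beyond replicate spread could not be tested.

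Among carriers of small neutral amino acids, all 4 genes compared were listed lower in Nutlin-3a, and Slc1a5 passed the limit. Of all 10331 genes compared, 4671 were listed lower, and 4 genes are too few to be set apart from them. Slc1a5 encodes ASCT2, a sodium-dependent exchanger and a main route of glutamine uptake in proliferating cells. It was listed at 21.7 FPKM in Nutlin-3a cells and 47.7 FPKM in DMSO cells, a 2.20-fold lower level (log2 ratio -1.10). It was the only member of the 26 compared that was lower by the limit, and it lay close to it, at -1.004 after a correction for GC content and at -0.98 with a pseudocount of 5. The gene lies on chromosome 7 (chr7:16781346-16798274, mm10, the whole gene model as listed).

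The other 3 genes of this class lay within the limit. Slc38a2 encodes SNAT2, a sodium-coupled glutamine and alanine carrier known to be induced when amino acids are short. It had 29.9 FPKM in Nutlin-3a cells and 39.5 FPKM in DMSO cells, a log2 ratio of -0.39. Slc38a4, the gene of the related carrier SNAT4, had 11.9 FPKM in Nutlin-3a cells and 17.7 FPKM in DMSO cells (-0.54). Slc1a4, the gene of ASCT1, which carries alanine, serine and cysteine, had 6.61 FPKM in Nutlin-3a cells and 7.39 FPKM in DMSO cells (-0.14). The class median was -0.46, and its summed level over 10 listed genes was 70.6 FPKM in Nutlin-3a cells and 112.7 FPKM in DMSO cells, 1.60-fold lower. The class thus held 16.9% of the summed FPKM of all members in Nutlin-3a and 28.5% in DMSO. Slc1a5 made up most of that difference.

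The heavy chain went the other way. Slc3a2, which encodes the heavy chain of the CD98 complex, was listed at 134.5 FPKM in Nutlin-3a cells and 85.4 FPKM in DMSO cells, 1.57-fold higher and within the limit (log2 ratio 0.65). Of its 2 transcripts, 1 held nearly all of the level (132.7 FPKM in Nutlin-3a cells and 85.0 FPKM in DMSO cells). Both transcripts were listed higher in Nutlin-3a. Slc3a2 alone made up 32.2% of the summed member FPKM in Nutlin-3a cells and 21.6% in DMSO. The light chains of this set that pair with it, Slc7a5, Slc7a6, Slc7a7, Slc7a8 and Slc7a10, summed to 24.6 FPKM in Nutlin-3a cells and 24.9 FPKM in DMSO cells. The heavy chain therefore exceeded these light chains 5.47-fold in Nutlin-3a and 3.44-fold in DMSO. Slc7a11, a further partner, was not counted. Slc3a2 lies on chromosome 19 (chr19:8706882-8723369, mm10).

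Within those light chains the individual genes differed from each other. Slc7a5 encodes LAT1, which brings in leucine and other large neutral amino acids in exchange for glutamine. Slc7a5 had 13.02 FPKM in Nutlin-3a cells and 13.7 FPKM in DMSO cells, a log2 ratio of -0.07. Slc7a6, the gene of the y+LAT2 exchanger of cationic against neutral amino acids, had 7.97 FPKM in Nutlin-3a cells and 10.7 FPKM in DMSO cells (-0.39). Slc7a7 encodes y+LAT1, the closely related exchanger known for arginine and lysine transport in kidney and intestine. Slc7a7 had 3.53 FPKM in Nutlin-3a cells and 0.375 FPKM in DMSO cells, a 9.42-fold higher level on the plain ratio and a log2 ratio of 1.72. This was the highest ratio among the 26 members compared. Slc7a8 and Slc7a10 were both below 0.05 FPKM in each group.

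The Slc7a7 value has limits of its own. It rested on a low level in DMSO, and with a pseudocount of 5 its log2 ratio was 0.67, within the limit. Its listed gene model (chr14:54360841-54417702, mm10) overlaps the neighbouring gene Oxa1l, a mitochondrial membrane insertase gene, as does the RefSeq gene itself. The RefSeq gene spans chr14:54369442-54420068, so the listed model reaches further at the lower coordinate and ends earlier at the other. Oxa1l was listed at 10.9 FPKM in Nutlin-3a cells and 15.3 FPKM in DMSO cells, the opposite direction. Of the 2 listed transcripts of Slc7a7, 1 held nearly all of the level, with 3.53 FPKM in Nutlin-3a cells and 0.371 FPKM in DMSO cells. Whether reads of neighbours entered it was not tested.

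Slc7a7 was also one of 2 transporter genes with a C/EBP-ATF composite element near an annotated start, a motif that the stress factor ATF4 can bind. The motif was searched as TGATGNAAN on both strands, in windows from 250 bases before to 50 after the RefSeq starts. It was present for 2 of the 55 members with a window (3.64%), namely Slc7a7 and Slc1a4, and for 4.50% of all 27025 genes with one. Slc7a7 has 5 such windows, which partly overlap. A separate match, not shown, begins 141 bases before another of its annotated starts. The sequence below is shown because its start coincides with the end of the gene model listed for the member with the highest ratio. It holds the 250 bases before that start on the minus strand (chr14:54417703-54417952, GRCm38.p6, from RefSeq), and the capitals mark the motif, which begins 243 bases before the start.
Slc7a7 upstream: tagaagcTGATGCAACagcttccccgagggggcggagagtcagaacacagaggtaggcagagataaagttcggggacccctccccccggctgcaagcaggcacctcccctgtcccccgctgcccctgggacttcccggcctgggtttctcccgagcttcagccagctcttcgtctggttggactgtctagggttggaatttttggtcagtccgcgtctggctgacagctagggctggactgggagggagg
The match describes the letters in this window and says nothing of binding. The gene Atf4 itself had a log2 ratio of -0.87, within the limit, and a part of ATF4 was not tested. Slc1a4, the other member with a match, lay within the limit, as given above. The match of Slc1a4 did not lie wholly in the 250 bases before a start.

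**Figure D2:**
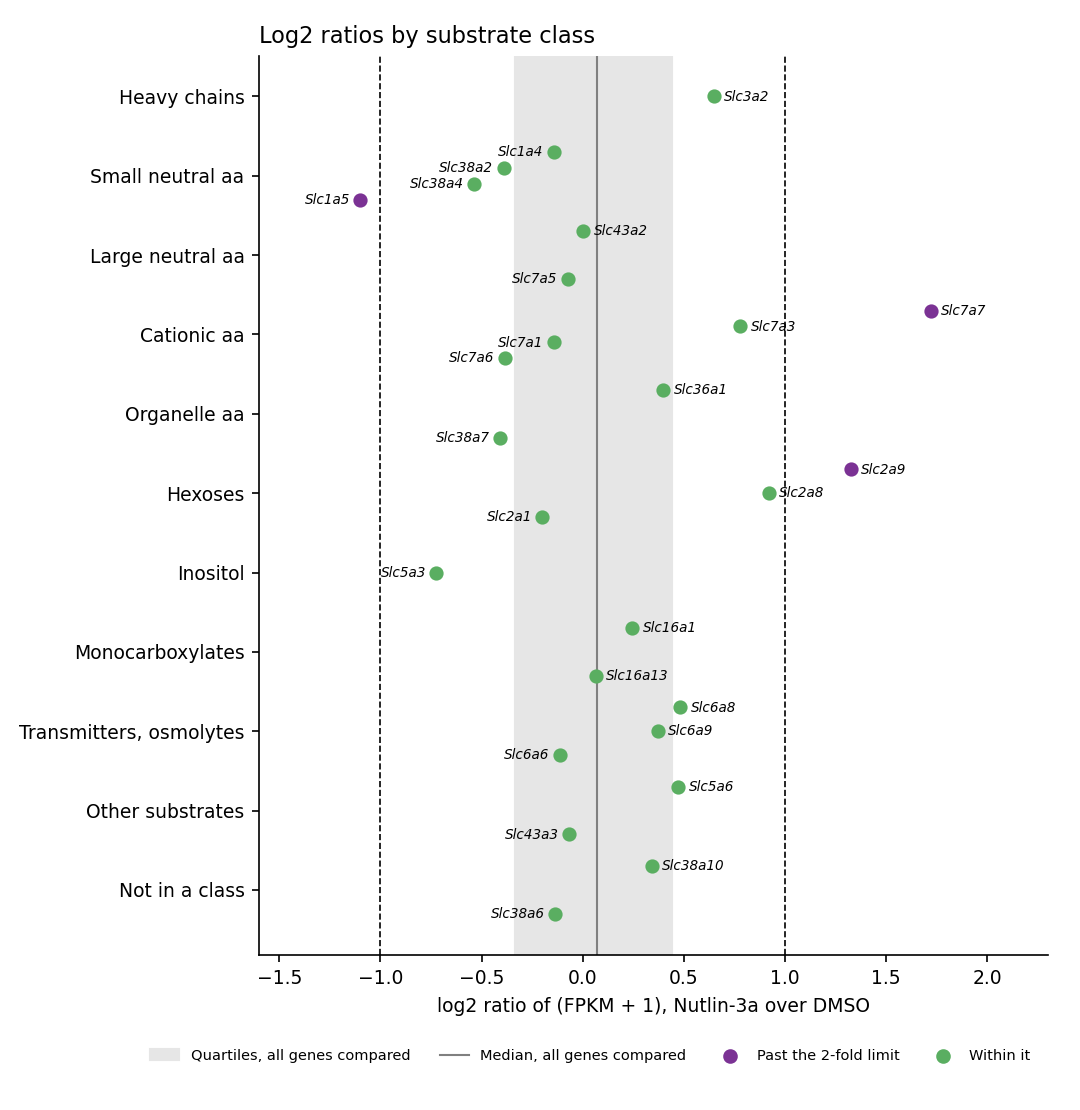
Log2 ratio of (FPKM + 1) for Nutlin-3a over DMSO of each of the 26 transporter genes compared, by substrate class. Dashed lines mark the 2-fold limit, the grey band and line mark the quartiles (-0.33 and 0.44) and the median (0.07) of all genes compared, and Slc7a7, Slc2a9 and Slc1a5 are the genes past the limit.

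Of the arginine and lysine carriers without a heavy chain, Slc7a3 was listed higher and Slc7a1 nearly level. Slc7a3 encodes CAT3 and is one of the carriers that p53 has been reported to raise elsewhere. It had 2.001 FPKM in Nutlin-3a cells and 0.748 FPKM in DMSO cells, a plain ratio of 2.67 and a log2 ratio of 0.78, within the limit. With a pseudocount of 0.1 its log2 ratio was 1.31, past the limit. Slc7a1, the gene of the broadly expressed carrier CAT1, had 2.41 FPKM in Nutlin-3a cells and 2.77 FPKM in DMSO cells (-0.14). The cationic class of 6 listed genes summed to 15.99 FPKM in Nutlin-3a cells and 14.7 FPKM in DMSO cells, and the median log2 ratio of its 4 genes compared was 0.32. Slc7a2 and Slc7a9 were below 0.06 FPKM in each group.

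Carriers of large neutral amino acids beside Slc7a5, and carriers of acidic amino acids, were weak. Slc43a2, the gene of the uniporter LAT4, had 1.34 FPKM in Nutlin-3a cells and 1.33 FPKM in DMSO cells. Slc43a1, the gene of LAT3, fell under the minimum mean, with 0.482 FPKM in Nutlin-3a cells and 1.41 FPKM in DMSO cells. Slc1a3 encodes the aspartate and glutamate carrier GLAST, another amino acid carrier that p53 has been reported to raise. Slc1a3 was under the minimum mean as well, with 0.223 FPKM in Nutlin-3a cells and 0.712 FPKM in DMSO cells. Its listed level was thus the lower one in Nutlin-3a, at values that this table resolves poorly. The 3 acidic carriers listed (Slc1a2, Slc1a3 and Slc1a7) summed to 0.290 FPKM in Nutlin-3a cells and 0.737 FPKM in DMSO cells.

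Of 5 proton-coupled and organelle amino acid carriers listed, 2 were compared, at intermediate levels and within the limit. Slc38a7 encodes SNAT7, which exports glutamine from lysosomes, and had 6.98 FPKM in Nutlin-3a cells and 9.60 FPKM in DMSO cells (log2 ratio -0.41). Slc36a1, the gene of the proton-coupled carrier PAT1, had 5.72 FPKM in Nutlin-3a cells and 4.10 FPKM in DMSO cells (0.40). Slc38a9, a lysosomal arginine sensor upstream of mTORC1, was under the minimum mean at 0.809 FPKM in Nutlin-3a cells and 0.611 FPKM in DMSO cells. Slc36a4 and Slc36a2 were under the minimum mean as well. The class of 5 listed genes summed to 14.1 FPKM in Nutlin-3a cells and 14.7 FPKM in DMSO cells. Over the acidic, small neutral, large neutral, cationic and organelle classes, 29 listed genes summed to 115.8 FPKM in Nutlin-3a cells and 159.3 FPKM in DMSO cells, a 1.38-fold lower level. With the glycine and proline carriers Slc6a5, Slc6a7 and Slc6a9 and the unclassed Slc38a6, Slc38a8 and Slc38a10 added, 35 genes summed to 147.5 FPKM in Nutlin-3a cells and 184.5 FPKM in DMSO cells, 1.25-fold lower. The 29 genes with the heavy chains had sums of 250.7 FPKM in Nutlin-3a cells and 244.8 FPKM in DMSO cells. Most of the 1.38-fold difference over the 29 genes lay in the small neutral class described above. The cationic class had the higher sum in Nutlin-3a.

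**Figure D3:**
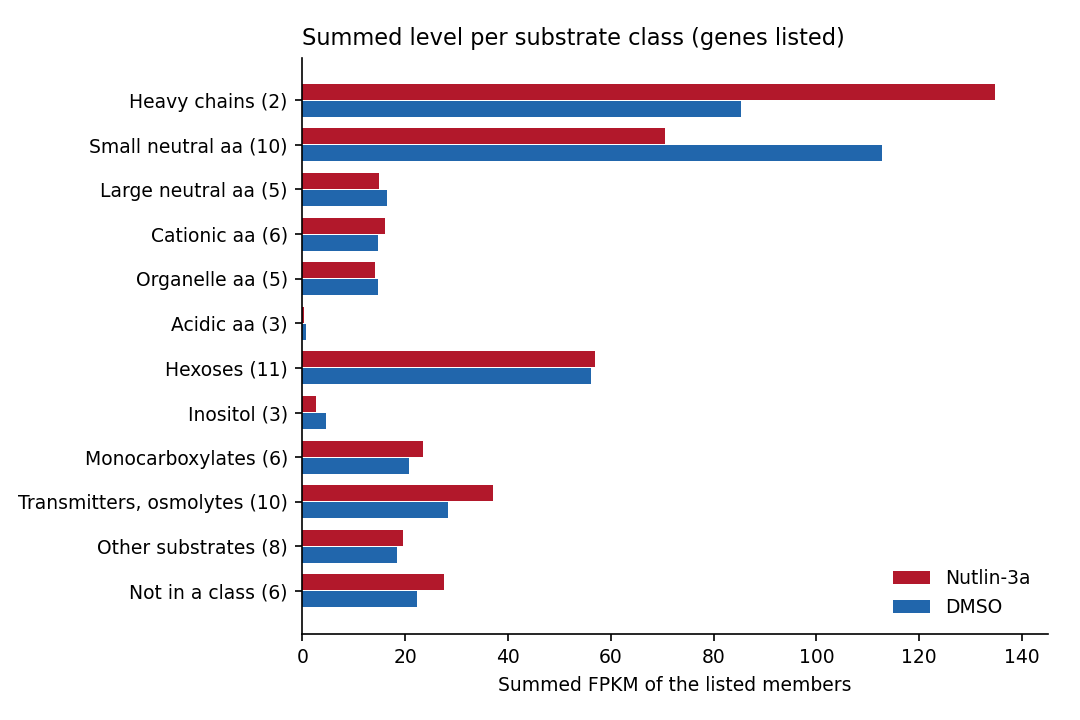
Summed FPKM of all listed members of each substrate class, with the Nutlin-3a bar above the DMSO bar and the number of listed genes in brackets, 1 value per group. Heavy chains stand at 134.9 FPKM in Nutlin-3a cells and 85.4 FPKM in DMSO cells, small neutral amino acid carriers at 70.6 FPKM in Nutlin-3a cells and 112.7 FPKM in DMSO cells, and hexose carriers at 56.8 FPKM in Nutlin-3a cells and 56.1 FPKM in DMSO cells.

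The summed level of the hexose carriers was nearly equal in both groups, but its make-up differed. Slc2a1 encodes GLUT1, the carrier of basal glucose uptake in most dividing cells. Slc2a1 had 42.7 FPKM in Nutlin-3a cells and 49.1 FPKM in DMSO cells, a log2 ratio of -0.20. It made up 75.04% of the class sum in Nutlin-3a and 87.5% in DMSO. The gene lies on chromosome 4 (chr4:119108745-119137329, mm10). Slc2a8, the gene of the intracellular carrier GLUT8, had 9.49 FPKM in Nutlin-3a cells and 4.54 FPKM in DMSO cells. Its plain ratio was 2.09 and its log2 ratio 0.92, within the limit. It passed the limit once ratios were corrected for GC content (1.09) and with a pseudocount of 0.1 (1.05).

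Slc2a9 was the second member past the limit on the higher side. It encodes GLUT9, which belongs to the GLUT family by sequence but is known chiefly as a urate carrier. It had 3.28 FPKM in Nutlin-3a cells and 0.706 FPKM in DMSO cells, a plain ratio of 4.65 and a log2 ratio of 1.33. Its 5 transcripts did not move alike. The 2 most abundant ones in Nutlin-3a had 2.09 and 1.18 FPKM there, and 0.303 and 0.0118 FPKM in DMSO cells. Another had a listed value of 0 in Nutlin-3a cells and 0.392 FPKM in DMSO cells. With a pseudocount of 5 the log2 ratio of the gene was 0.54, within the limit. Slc2a9 lies on chromosome 5 (chr5:38349273-38502152, mm10). Slc2a9 was counted with the hexose carriers, whose median log2 ratio of 0.92 rests on 3 genes compared. Over the 2 of these left at a mean of at least 5 FPKM, Slc2a1 and Slc2a8, the median was 0.36.

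The insulin-regulated carrier Slc2a4 (GLUT4), which marks mature fat and muscle cells, was close to absent from the table in both groups. It had 0.0364 FPKM in Nutlin-3a cells and was listed at 0 in DMSO. Slc2a3, the gene of the high-affinity carrier GLUT3, had 0.0878 FPKM in Nutlin-3a cells and was listed at 0 in DMSO. No fold is given for either, because a listed 0 may be an estimate that failed. Slc2a10 and the fructose carrier Slc2a5 were under the minimum mean and went opposite ways, Slc2a10 with 0.362 FPKM in Nutlin-3a cells and 1.35 FPKM in DMSO cells, and Slc2a5 with 0.813 FPKM in Nutlin-3a cells and 0.221 FPKM in DMSO cells.

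Monocarboxylate transporters lay within the limit. Slc16a1 encodes MCT1, a proton-coupled carrier of lactate, pyruvate and ketone bodies. Slc16a1 had 17.7 FPKM in Nutlin-3a cells and 14.7 FPKM in DMSO cells, a log2 ratio of 0.24. It held 75.2% of the class sum in Nutlin-3a and 71.2% in DMSO, and it lies on chromosome 3 (chr3:104638664-104658462, mm10). Slc16a13, a less studied member of the family, had 4.76 FPKM in Nutlin-3a cells and 4.51 FPKM in DMSO cells (0.06). Slc16a3, the gene of MCT4, the carrier known for lactate export from glycolytic cells, fell just under the minimum mean with 0.404 FPKM in Nutlin-3a cells and 1.43 FPKM in DMSO cells. Its listed span overlaps the gene Csnk1d, so its low value is uncertain. The class of 6 listed genes summed to 23.5 FPKM in Nutlin-3a cells and 20.7 FPKM in DMSO cells.

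Carriers of creatine, taurine, glycine and inositol completed the set with moderate levels. Slc6a8, the creatine transporter gene, had 26.7 FPKM in Nutlin-3a cells and 18.8 FPKM in DMSO cells, a log2 ratio of 0.48. Slc6a6, the taurine transporter gene, had 5.60 FPKM in Nutlin-3a cells and 6.14 FPKM in DMSO cells (-0.11), and Slc6a9, the glycine transporter gene, had 4.41 FPKM in Nutlin-3a cells and 3.18 FPKM in DMSO cells (0.37). The osmolyte carrier Slc5a3, which takes up myo-inositol, had 2.33 FPKM in Nutlin-3a cells and 4.51 FPKM in DMSO cells (-0.72). Slc5a3 shared its listed gene model with the mitochondrial ribosomal protein gene Mrps6, which had 347 FPKM in Nutlin-3a cells and 324 FPKM in DMSO cells. How reads were divided between the pair was not tested. The 10 genes of the transmitter and osmolyte class summed to 37.2 FPKM in Nutlin-3a cells and 28.3 FPKM in DMSO cells, with Slc6a8 as the largest part.

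The remaining genes compared lay within the limit too. Slc43a3, the gene of a purine base carrier, had 15.1 FPKM in Nutlin-3a cells and 15.8 FPKM in DMSO cells (log2 ratio -0.07). Slc5a6, the multivitamin carrier gene for biotin and pantothenate, had 2.20 FPKM in Nutlin-3a cells and 1.31 FPKM in DMSO cells (0.47). Slc38a6 had 1.79 FPKM in Nutlin-3a cells and 2.07 FPKM in DMSO cells (-0.14). Slc38a10, like Slc38a6 placed in no class, had 25.3 FPKM in Nutlin-3a cells and 19.8 FPKM in DMSO cells (0.34). Its transcripts went opposite ways: the main one had 21.4 FPKM in Nutlin-3a cells and 12.4 FPKM in DMSO cells, and the next had 3.40 FPKM in Nutlin-3a cells and 5.54 FPKM in DMSO cells. The near-level sum of Slc38a10 therefore joins transcripts with log2 ratios of 0.74 and -0.57. Beside Slc7a7 and Slc5a3, the listed spans of Slc5a6, Slc6a9 and Slc38a6 also hold another coding gene, so that 5 of the 26 genes compared share their span.

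The 49 members not compared were all under the minimum mean, and most had the higher value in Nutlin-3a. Their values reached at most 1.11 FPKM in Nutlin-3a cells (Slc5a5, the iodide carrier gene) and 1.43 FPKM in DMSO cells (Slc16a3). Of the 49, 2 were listed at 0 in Nutlin-3a and 22 in DMSO. Zeros were spread in the same unequal way over all 6329 symbols under the minimum mean, of which 7.27% were at 0 in Nutlin-3a and 36.4% in DMSO. Among the members, 71.4% had the higher value in Nutlin-3a, against 72.1% of all such symbols. The low members thus followed the table as a whole, and no direction is read from them.

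**Figure D4:**
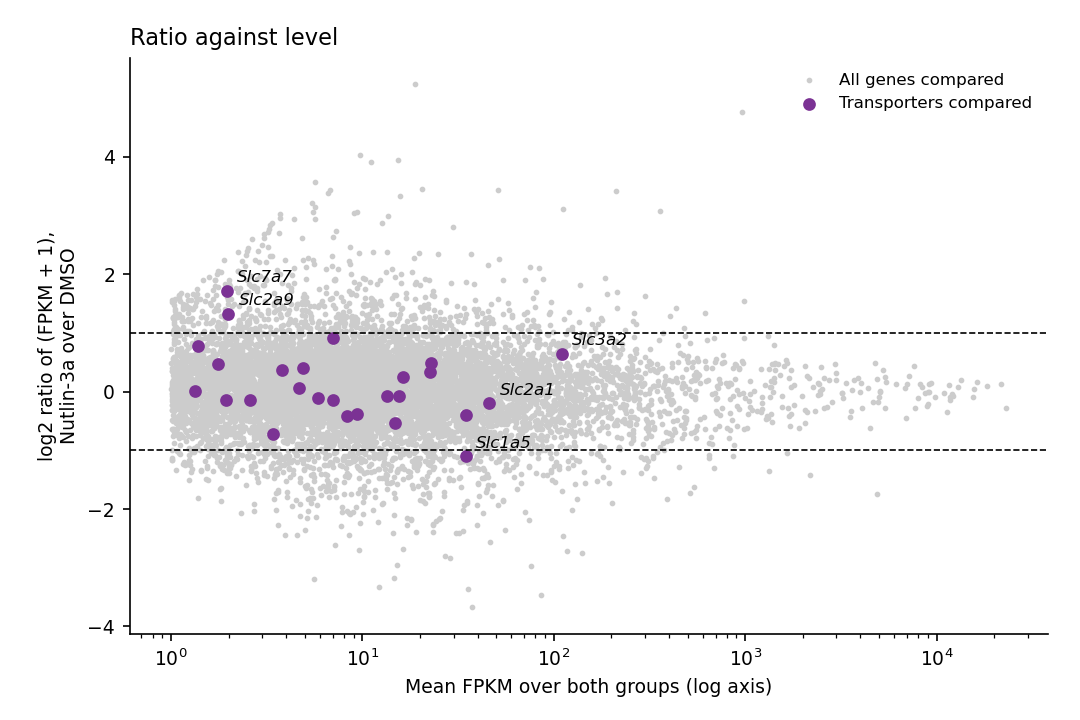
Log2 ratio of (FPKM + 1) for Nutlin-3a over DMSO against the mean FPKM of both groups on a log axis, with all 10331 genes compared in grey, the 26 transporter genes in purple and dashed lines at the 2-fold limit. Slc7a7 and Slc2a9 lie above the limit at a mean near 2 FPKM, whereas Slc1a5 lies below it at a mean of 34.7 FPKM.

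Genes that work with these carriers were also mostly within the limit. Against the 6.62% of all genes compared that were higher and the 6.14% that were lower, lists of this size hold too few genes to be set apart from the rest. Of 8 chaperones and traffic regulators, none passed the limit. Bsg, the basigin gene, whose product carries MCT1 and MCT4 to the membrane, had 690 FPKM in Nutlin-3a cells and 702 FPKM in DMSO cells. Txnip and Arrdc4, arrestin-like proteins that restrain glucose uptake, had 117.9 and 22.4 FPKM in Nutlin-3a cells and 70.0 and 13.2 FPKM in DMSO cells, with log2 ratios of 0.74 and 0.72. Tbc1d1 lay higher as well (0.81) and Nedd4 lower (-0.71), and the median log2 ratio of the 8 was 0.31. Of 6 enzyme genes of glutamine, glutamate and asparagine metabolism compared, Glud1, the glutamate dehydrogenase gene, was higher (93.6 FPKM in Nutlin-3a cells and 42.2 FPKM in DMSO cells, log2 ratio 1.13) and none was lower. Asns, the asparagine synthetase gene, had 129.4 FPKM in Nutlin-3a cells and 128.6 FPKM in DMSO cells. Got1 and Got2 lay lower within the limit (-0.80 and -0.42), and the median log2 ratio of the 6 was -0.06. Of 12 genes of lysosomal amino acid sensing compared, the p53 target Sesn2, a leucine-binding inhibitor of mTORC1 signalling, was higher (5.40 FPKM in Nutlin-3a cells and 0.392 FPKM in DMSO cells, log2 ratio 2.20) and none was lower. Rragc, a Rag GTPase gene, lay within the limit with 70.1 FPKM in Nutlin-3a cells and 43.2 FPKM in DMSO cells (0.69). Lamtor4 and Lamtor2 lay lower within it (-0.52 and -0.36), and the median log2 ratio of the 12 was -0.02. These counts were not tested.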

How the data were processed

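Per the labels' protocols, total RNA was taken with TRIzol and made into libraries by Illumina's procedures. The tool TopHat2 2.0.11 and the build mm10 are listed, without a role, per the submitters' processing notes. Which quantifier and annotation were used, and how the 2 replicates of a group were combined, is not given in the sources used here. In the deposited table, each of 24746 transcripts had 1 FPKM value per group. Columns starting with NUT were read as Nutlin-3a, and those starting with DSM as DMSO, the only other group. A second pair of deposited columns held log2 of the same FPKM, to within 0.0071, and was not used.

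Transcript FPKM was summed per symbol, a pseudocount of 1 was added, and log2 of Nutlin-3a over DMSO was taken, which understates the ratio of weak genes. Plain ratios use FPKM without the pseudocount. Genes with a mean FPKM of at least 1 and both values above 0 were compared, with a 2-fold limit on the log2 scale in place of a test. Named are all genes past the limit, those with at least 10 FPKM in a group, a fixed set of 11 carriers, and the other genes compared, to complete each class; further genes were named after their values were seen. The members, classes and lists were chosen with earlier results of these data known. One gene of a list is not reported here. Listed starts were raised by 1 to count from 1. GC content came from the longest GENCODE M21 transcript of each symbol, found for 96.2% of the genes compared, and the correction subtracted the median log2 ratio of 8 GC classes. The code for the calls was checked on simulated data with known fold changes, which says nothing of replicate error. The planted changes were larger than the limit, and no gene as weak in DMSO as Slc7a7 or Slc2a9 was included. Python 3.11.15, pandas 2.3.3 and numpy 2.4.6 were used.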

Additional observations from a re-analysis of the deposited data

How the results depend on the processing

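No paired analysis was possible because the table holds no value per library, and leaving out a replicate and the limma fit were not run for the same reason. The counts of 2 members higher and 1 lower were kept under upper-quartile scaling, quantile normalization, centring on the median of all genes, no filter on low values, and taking the transcript with the highest mean. With a pseudocount of 0.1, 4 members were higher (Slc2a8 and Slc7a3 were added) and 1 lower, against 9.66% and 8.18% of all genes, and with a pseudocount of 5, 0 were higher and 0 lower, against 2.41% and 2.82%. Under a minimum mean of 5 FPKM, 0 were higher and 1 lower, against 5.68% and 6.77%, since Slc7a7 and Slc2a9 were not compared. With a limit of 1.5-fold, 5 were higher and 2 lower, against 17.8% and 15.2% of all genes. After the correction for GC content, an alternative chosen after seeing the data, 3 were higher and 1 lower, against 6.15% and 6.21%. The median log2 ratio of all members ran from -0.11 to 0.03. Class medians rest on 3 or 4 genes as reported, on 5 or 6 without a filter, and moved more. With a mean of at least 5 that of cationic carriers is the value of 1 gene, Slc7a6, and those of hexose and of transmitter and osmolyte carriers rest on 2. That of hexose carriers, 0.92, was 1.05 and 0.54 with pseudocounts of 0.1 and 5, 0.20 without a filter, 0.36 with a mean of at least 5, and 1.09 after the GC correction. That of cationic carriers, 0.32, was 0.56 and 0.11 with those pseudocounts, -0.033 without a filter, -0.39 with a mean of at least 5 and 0.16 after quantile normalization. That of transmitter and osmolyte carriers, 0.37, was 0.20 with a pseudocount of 5, 0.15 without a filter, 0.18 with a mean of at least 5 and 0.27 after quantile normalization. That of small neutral carriers, -0.46, was -0.31 without a filter and -0.67 after the GC correction. The cause of these shifts was not tested. Of 223 values of single genes under the alternatives, 217 kept their side of the limit. Part of these could not change side: the settings that altered only the minimum mean left every ratio as it was. The count is therefore no measure of how firm the calls are. The depth per library is unknown, and it limits genes under about 1 FPKM most.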

Other observations

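The table also listed 197 symbols of other solute carrier families, of which 105 were compared. By the 2-fold limit, 8 of these were higher in Nutlin-3a cells and 6 lower (7.62% and 5.71%, near the 6.62% and 6.14% of all genes compared), with a median log2 ratio of 0.09. Their summed level was 2603 FPKM in Nutlin-3a cells and 3317 FPKM in DMSO cells, 1.27-fold lower, while the 75 carriers described above summed to 418 FPKM in Nutlin-3a cells and 395 FPKM in DMSO cells. By family number, Slc1 summed to 28.6 FPKM in Nutlin-3a cells and 55.8 FPKM in DMSO cells, and Slc38 to 77.1 FPKM in Nutlin-3a cells and 89.7 FPKM in DMSO cells. Slc7 summed to 29.2 FPKM in Nutlin-3a cells and 28.5 FPKM in DMSO cells, and Slc6 to 37.2 FPKM in Nutlin-3a cells and 28.3 FPKM in DMSO cells. None of these differences was tested.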
